A study of Mus musculus with 25 samples.

Results

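Lungs of 5 mice given 10 µg of house dust mite extract were compared with lungs of 5 mice given saline, all from the 2-week model, which makes 10 of the 25 lungs in the series. Membership followed the treatment and time labels alone, and every gene of the count table was examined. All mice were female, wild type and of the C57BL/6 strain, which the sample labels give as C57BL/6J and the design text as C57BL/6cmdb. Extract and saline went in through the nose. For the control lungs 1 label reads untreated where the protocol names saline, and saline is the word used below. The other 15 mice received 100 µg for 2 weeks, 100 µg for 12 weeks or saline for 12 weeks, 5 in each group. How often the mice were dosed, at what hour they were killed and how they were housed was not stated in the available labels. In the main fit, p-values set the group difference against a spread between mice estimated over all 25 lungs. A difference in hour or housing that followed the groups could not be told apart from one due to the extract. The question put by the comparison is what the lower dose does to lung RNA in the short model.

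House dust mite extract is a mixture of mite proteases, other allergens, chitin and microbial products. Airway epithelium that senses it can release the alarmins IL-33 and TSLP, which act on innate lymphoid cells and T helper cells that make IL-4, IL-5 and IL-13; eosinophil influx, goblet cell mucus and alternatively activated macrophages follow in the full allergic response of the mouse lung. Lung cells also carry a circadian clock, in which Arntl (BMAL1) pairs with Clock or Npas2 to drive the Per, Cry and Nr1d genes that later repress the same pair, and in which Dbp, Tef and Hlf pass the rhythm on to other genes. Bulk RNA of a whole lung cannot tell a change in the number of cells of a type from a change in the RNA made per cell.

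Of the 10 libraries, 9 held 25.4 to 51.9 M counts (M, mega), while saline replicate 4 held 7.23 M, with 27.8% of its counts in ribosomal RNA genes against 0.00212 to 0.103% in the other 9 and 9.80% in mitochondrial genes against 1.99 to 4.02%. Results of 10 µg against saline are therefore also given without saline replicate 4, in a clause or as a second value in brackets; the values at 100 µg against saline were computed with it. Markers of alveolar type 2 cells (Sftpc at 4919 CPM or more), type 1 cells, club cells, ciliated cells, endothelium and alveolar macrophages had counts in all 10 libraries, as the lung label requires, where CPM is the count per 1000000 after scaling by trimmed means. Heart muscle genes were also present and varied between mice, with Myh6 at 79.3 to 374 CPM in saline and 208 to 466 CPM at 10 µg. Of genes listed for liver, thymus, skeletal muscle or fat, Serpina1a was at 0 in 10 libraries and Ptcra and Ttr in 9. Myh4 and Apoa1 were at 0 in 7, Ucp1 in 4 and Acta1 in 2. Rag1, Dntt, Cd1d1 and Alb had counts in all 10, at up to 4.39, 1.55, 10.8 and 1.43 CPM. So did Ckm and Mylpf of skeletal muscle, at up to 14.0 and 2.14 CPM. The fat genes Cidec, Adipoq and Plin1 did as well, at up to 13.5, 5.92 and 2.64 CPM.

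Few genes passed the test at 10 µg. With an adjusted p under 0.05 (edgeR's quasi-likelihood test over 19654 genes, Benjamini-Hochberg adjustment), 8 genes were called, 0.0407% of those tested. Higher at 10 µg were 6 (0.0305%), namely Gpsm3, Clec4a1, Lingo1, Kctd14, Gsk3a and Dbp, and lower were 2 (0.0102%), namely Gprin3 and Nbea. In each of the 8, all 5 mice given extract lay on one side of all 5 saline mice, also once saline replicate 4 was left out, a separation shown by 1.68% of all tested genes in the higher and 1.65% in the lower direction (2.41% and 2.56% without saline replicate 4). Without saline replicate 4, 4 genes were called (0.0201%), all higher: Gpsm3, Lingo1, Gsk3a and Trp53, the last of which had missed the threshold before. The number called rests on single libraries and on the tool: leaving out any 1 of the 10 gave 0 to 57 calls (57 without 10 µg replicate 4, 49 without saline replicate 5, and 0 without saline replicate 1 or 3 or 10 µg replicate 1, 2, 3 or 5), the 10 libraries fitted alone gave 0 and limma-voom 0, DESeq2 gave 202 with all 8 among them, and limma-voom with quality weights 329. The log2 fold changes of the 8 kept their direction in all 248 values recomputed, but 151 of these values missed the threshold. The 8 were chosen from these same libraries and their groups did not overlap, so the kept direction adds no support.

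A pair of the called genes belongs to leukocytes. Gpsm3 (chr17:34589806-34591754 on the plus strand, GRCm38), which encodes a regulator of inhibitory G proteins in cells of the immune system, stood at 6.03, 5.42, 5.30, 3.28 and 7.38 CPM in saline replicates 1 to 5 and at 9.34, 11.6, 11.1, 9.19 and 10.3 CPM in the 10 µg replicates 1 to 5. The lowest mouse given extract was above the highest saline mouse, and saline replicate 4 was the lowest of all. The gene rose by 0.85 on the log2 scale (SE 0.15; edgeR, adjusted p = 0.0456), and by 0.79 without saline replicate 4 (edgeR, adjusted p = 0.0336). Its annotated exons share 227 bases with those of Pbx2 on the same strand, and Pbx2 itself stood at a log2 fold change of 0.08. Clec4a1 (chr6:122921848-122934619, plus strand), a C-type lectin receptor of myeloid cells, stood at 3.01, 2.90, 3.36, 3.28 and 3.65 CPM in saline replicates 1 to 5 and at 5.48, 5.59, 6.10, 4.38 and 4.77 CPM in the 10 µg replicates 1 to 5. Saline values kept within a narrow band and the highest of them, replicate 5, lay under the lowest mouse given extract, replicate 4. Clec4a1 rose by 0.70 (SE 0.13; edgeR, adjusted p = 0.0456); without saline replicate 4 the log2 fold change was 0.72 and missed the threshold (edgeR, adjusted p = 0.0612). It has close relatives in the same gene cluster, and how reads that match several genes were counted was not given in the sources used here.

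**Figure D1:**
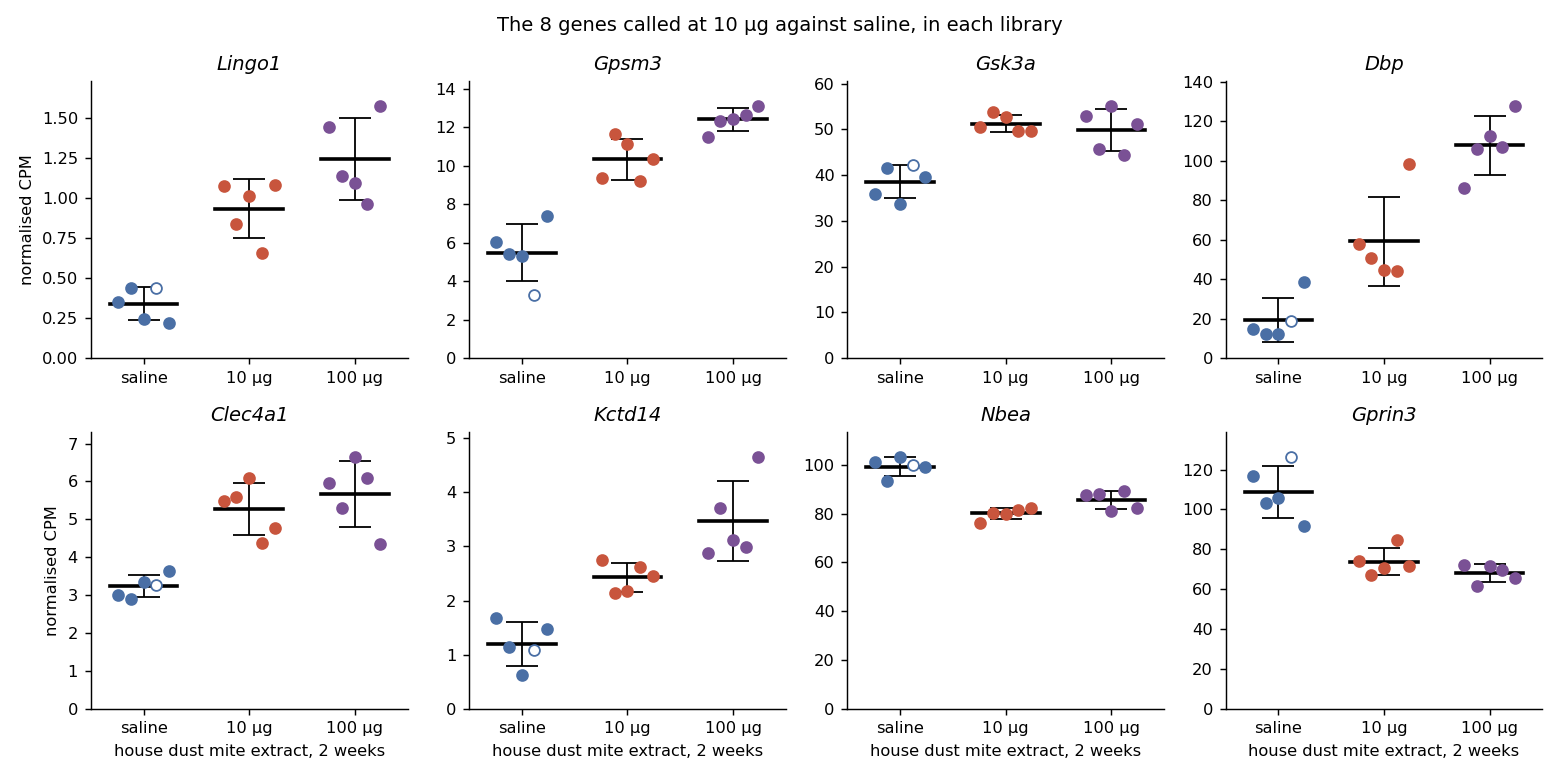
Normalised CPM (linear axis from 0) of the 8 genes called at 10 µg, 1 point per library, for saline, 10 µg and 100 µg of extract at 2 weeks; horizontal bars are means, whiskers SDs (n = 5), and the open circle is saline replicate 4. In each panel the 5 points at 10 µg lie wholly above or wholly below the 5 saline points, and the 100 µg points lie on the same side of saline as those at 10 µg.

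Lingo1, Kctd14 and Gsk3a rose as well. Lingo1 (chr9:56618475-56796468, minus strand), a membrane protein known for restraining neurite growth and myelination, stood at 0.352, 0.439, 0.242, 0.437 and 0.222 CPM in saline replicates 1 to 5 and at 1.07, 0.839, 1.01, 0.656 and 1.08 CPM in the 10 µg replicates 1 to 5. These are low levels, 48 counts in all over the saline libraries and 189 over those at 10 µg, yet the lowest mouse given extract was above the highest saline mouse. The gene rose by 1.53 log2 (SE 0.26; edgeR, adjusted p = 0.0456), and by 1.57 without saline replicate 4 (edgeR, adjusted p = 0.0293). Kctd14 (chr7:97451323-97459557, plus strand), of a family of proteins with a potassium channel tetramerisation domain, stood at 1.68, 1.14, 0.623, 1.09 and 1.47 CPM in saline replicates 1 to 5 and at 2.75, 2.14, 2.18, 2.63 and 2.45 CPM in the 10 µg replicates 1 to 5. Saline replicate 3 was lowest and the groups did not overlap. Kctd14 rose by 0.99 (SE 0.19; edgeR, adjusted p = 0.0484), while without saline replicate 4 its 1.00 missed the threshold (edgeR, adjusted p = 0.0612). Gsk3a (chr7:25228258-25237851, minus strand), a serine/threonine kinase of glycogen metabolism and Wnt signalling, stood at 35.9, 41.6, 33.7, 42.2 and 39.5 CPM in saline replicates 1 to 5 and at 50.4, 53.8, 52.7, 49.7 and 49.6 CPM in the 10 µg replicates 1 to 5. Its change was small, 0.41 log2 (SE 0.08; edgeR, adjusted p = 0.0456), and mice within a group were close to each other. It was 0.46 without saline replicate 4 (edgeR, adjusted p = 0.0293). An antisense gene covers 820 of its exonic bases, and the strand setting of the counting was not given in the sources used here.

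Trp53 (chr11:69580359-69591873, plus strand), the gene of the p53 stress-response factor, stood at 15.7, 11.0, 10.8, 22.5 and 18.6 CPM in saline replicates 1 to 5 and at 23.7, 23.3, 27.2, 22.8 and 27.0 CPM in the 10 µg replicates 1 to 5. The highest saline value was that of replicate 4. With it the log2 fold change was 0.70 and missed the threshold (SE 0.15; edgeR, adjusted p = 0.0763); without it the gene was called at 0.84 (SE 0.14; edgeR, adjusted p = 0.0293).

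Gprin3 and Nbea were the genes that fell. Gprin3 (chr6:59347226-59426294, minus strand), a G protein-regulated inducer of neurite outgrowth, stood at 117, 103, 106, 126 and 91.7 CPM in saline replicates 1 to 5 and at 74.0, 67.3, 70.8, 84.9 and 71.7 CPM in the 10 µg replicates 1 to 5. Saline replicate 4 was the highest of all 10, and the groups did not overlap. The gene fell by 0.56 log2 (SE 0.10; edgeR, adjusted p = 0.0456); without saline replicate 4 its log2 fold change of -0.48 missed the threshold (edgeR, adjusted p = 0.106). Nbea (chr3:55625195-56183701, minus strand), neurobeachin, a scaffold of membrane trafficking, stood at 101, 93.2, 103, 99.7 and 99.1 CPM in saline replicates 1 to 5 and at 76.2, 80.3, 79.7, 81.6 and 82.3 CPM in the 10 µg replicates 1 to 5. All saline values were above all values at 10 µg and both groups were tight, which let a small difference pass. Nbea fell by 0.31 (SE 0.06; edgeR, adjusted p = 0.0456), and without saline replicate 4 stood at -0.29 (edgeR, adjusted p = 0.0612).

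Dbp, the eighth called gene, belongs to the circadian clock. Dbp (chr7:45705088-45710203, plus strand), a transcription factor that binds the D-box element and peaks once a day, stood at 14.8, 12.1, 12.2, 18.6 and 38.8 CPM in saline replicates 1 to 5 and at 57.7, 50.9, 44.8, 44.0 and 98.4 CPM in the 10 µg replicates 1 to 5. The lowest mouse given extract was above the highest saline mouse, but replicate 5 was far above the rest of its own group on both sides. Dbp rose by 1.61 log2 (SE 0.30; edgeR, adjusted p = 0.0456), and without saline replicate 4 the same 1.61 missed the threshold (edgeR, adjusted p = 0.0684). Its exons share 539 bases with Sphk2 on the opposite strand, and Sphk2 stood at 0.26.

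None of the 15 core clock genes tested was called by edgeR in the fit of all libraries, although Per3 was called in 5 of the 31 settings tried, Npas2 in 4, Arntl in 3, Nr1d1 and Nr1d2 in 2 each, and Clock, Cry1 and Bhlhe40 in 1 each. At an unadjusted p under 0.05, 4 of the 15 were higher, against 5.66% of all genes, and 5 were lower, against 6.84%; without saline replicate 4 these counts were 4 and 4, against 5.77% and 3.98%. Chosen after their values were seen, the 4 higher were Per3, Nr1d1, Nr1d2 and Bhlhe40, all repressors within the loop. The 5 lower were the activators Arntl, Clock and Npas2, with Rora and the repressor Cry1. Repressors thus lay on both sides, and the other members of the 15 did not reach that p. Per3 stood at 19.4, 16.6, 17.7, 17.7 and 30.6 CPM in saline replicates 1 to 5 and at 32.6, 26.4, 24.3, 36.0 and 44.8 CPM in the 10 µg replicates 1 to 5. The ranges overlapped through saline replicate 5, the highest saline mouse, and the log2 fold change was 0.67 (SE 0.17; edgeR, adjusted p = 0.105), or 0.65 without saline replicate 4. Arntl stood at 70.4, 70.1, 68.6, 68.7 and 42.9 CPM in saline replicates 1 to 5 and at 41.0, 43.3, 43.0, 43.5 and 26.7 CPM in the 10 µg replicates 1 to 5. Saline replicates 1 to 4 were above all mice given extract, replicate 5 lay among them, and replicate 5 was again lowest at 10 µg; the log2 fold change was -0.70 (SE 0.19; edgeR, adjusted p = 0.141), or -0.66 without saline replicate 4.

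Npas2, which can take the place of Clock as partner of Arntl, ranged from 5.67 to 14.2 CPM in saline and from 4.31 to 6.10 CPM at 10 µg, a log2 fold change of -0.87 (SE 0.22; edgeR, adjusted p = 0.103), or -0.89 without saline replicate 4. Clock itself ranged from 233 to 308 and from 182 to 218 CPM without overlap, at -0.34 (edgeR, adjusted p = 0.154), or -0.25 without saline replicate 4. Among the 8 output factors, Dbp was the 1 called, beside 0.0407% of all genes, and 0 were called without saline replicate 4 (0.0201%). At an unadjusted p under 0.05, 2 were higher, Dbp included, and 1 was lower, beside 5.66% and 6.84% of all genes. Without saline replicate 4 these counts were also 2 and 1, beside 5.77% and 3.98%. Tef, the D-box factor nearest to Dbp in kind, stood at 0.45 (0.43; edgeR, adjusted p = 0.261 and 0.391) with no overlap between groups, and Hlf at 0.42 (0.44; edgeR, adjusted p = 0.429 and 0.565). Nfil3, a repressor that competes at the same element, stood at -0.60 (-0.68; edgeR, adjusted p = 0.306 and 0.306).

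Some of these genes, chosen after their values were seen, are set beside Dbp over the 10 libraries on the log2 scale. A difference between the groups by itself raises the size of such a correlation. Pearson's r with Dbp was 0.93 for Per3 and 0.90 for Tef, and it was -0.97 for Arntl, -0.94 for Npas2, -0.83 for Clock and -0.81 for Nfil3, with no test made, since the libraries share their groups. Without saline replicate 4 (n = 9) r was -0.94 for Clock and -0.96 for Nfil3. Replicate 5 had the highest Dbp and the lowest Arntl in its group among both saline and treated mice. No label gives the hour of collection, and its part in these values was not tested.

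**Figure D2:**
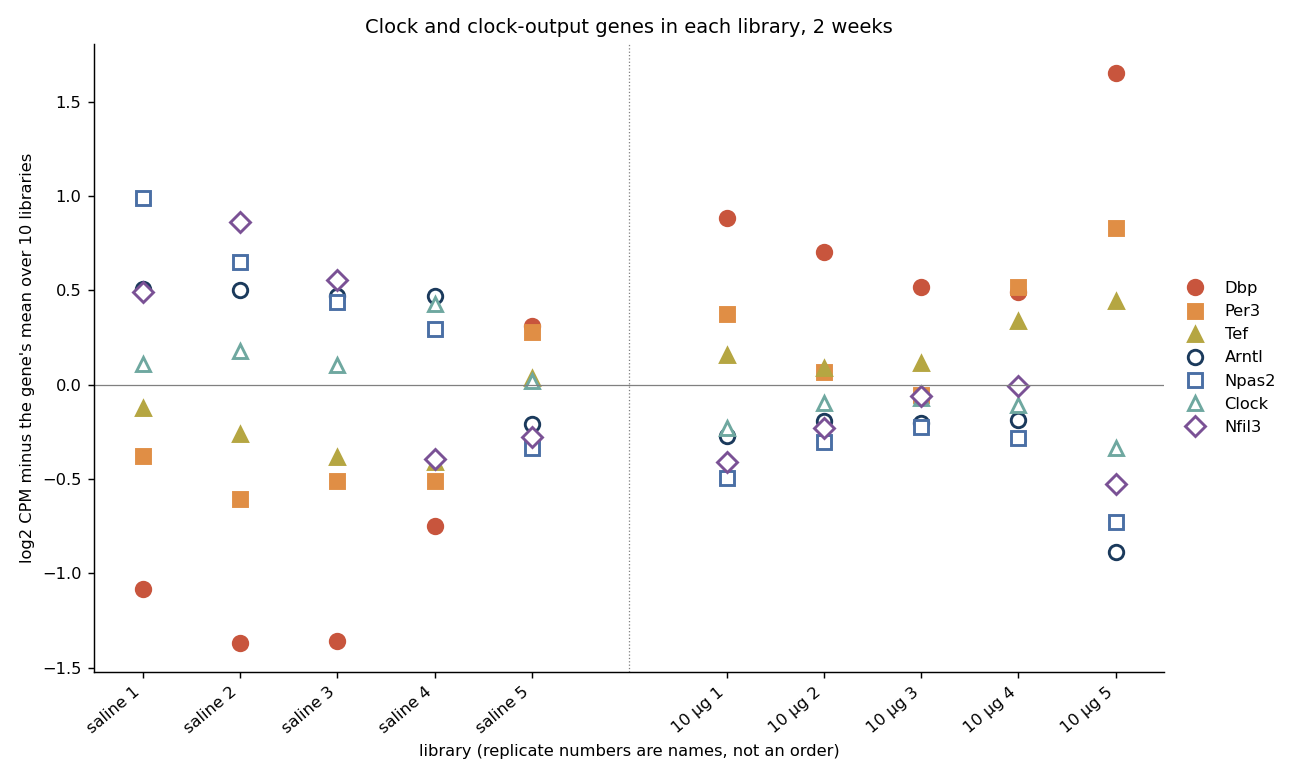
Log2 CPM of 7 clock and clock-output genes minus each gene's mean over the 10 libraries (vertical axis), for saline replicates 1 to 5 on the left and 10 µg replicates 1 to 5 on the right; filled symbols are Dbp, Per3 and Tef, open symbols Arntl, Npas2, Clock and Nfil3. In saline replicates 1 to 4 the filled symbols lie below 0, in saline replicate 5 Dbp and Per3 lie above 0 and Arntl and Npas2 below it, and at 10 µg replicate 5 has the highest filled and the lowest open symbols.

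Promoter windows of 3 of these genes are shown, searched for short elements through which the loop acts. The E-box CACGTG is bound by Arntl with its partner, and the D-box TTATGTAA by Dbp, Tef, Hlf and Nfil3. For the ROR element, bound by the Rora and Nr1d families, the letters AGGTCA were searched without flanking bases. Windows run from 250 bases before to 50 after a start site (RefSeq, GRCm38.p6), and 25 of 30 clock or called genes had one. Both strands were searched, and capitals mark a match.
Per3 promoter, chr4:151044616-151044915, minus strand: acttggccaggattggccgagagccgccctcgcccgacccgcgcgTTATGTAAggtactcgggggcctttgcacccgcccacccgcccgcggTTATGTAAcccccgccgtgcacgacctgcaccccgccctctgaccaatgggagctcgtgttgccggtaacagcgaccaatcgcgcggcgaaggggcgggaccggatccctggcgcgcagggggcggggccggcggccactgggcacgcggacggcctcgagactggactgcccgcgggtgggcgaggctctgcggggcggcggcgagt
Arntl promoter, chr7:113207261-113207560, plus strand: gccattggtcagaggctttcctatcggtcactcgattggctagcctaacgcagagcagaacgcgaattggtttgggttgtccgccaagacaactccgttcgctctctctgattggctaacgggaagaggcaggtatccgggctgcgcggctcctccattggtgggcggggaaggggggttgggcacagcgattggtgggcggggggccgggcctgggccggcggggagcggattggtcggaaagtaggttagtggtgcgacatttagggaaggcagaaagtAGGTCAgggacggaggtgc
Dbp promoter, chr7:45704997-45705296, plus strand: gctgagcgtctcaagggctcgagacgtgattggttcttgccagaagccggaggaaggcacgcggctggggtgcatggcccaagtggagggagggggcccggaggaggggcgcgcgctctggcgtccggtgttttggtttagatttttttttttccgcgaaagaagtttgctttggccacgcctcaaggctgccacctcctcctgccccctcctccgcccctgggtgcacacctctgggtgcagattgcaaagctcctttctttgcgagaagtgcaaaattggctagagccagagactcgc

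The Per3 window held 2 D-boxes, an element found in 0.938% of the 32851 windows of the table, and it was the 1 gene of the 25 to hold any. The Arntl window from a second start site held 1 match to AGGTCA, found in 16.3% of windows, and the window from its first start site held 0. Of the 25 genes with a window, 7 held an E-box, among them the called Gprin3, and 5 held AGGTCA. In the Dbp window none of the 3 letter strings occurred, and the E-box occurred in 7.15% of windows overall. These are matches of letters, not sites of binding.

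Leukocyte lists are described by their counts and medians, beside a median of -0.01 over all genes tested (0.00 without saline replicate 4) and a share of 48.0% of genes above 0 (50.4%). Of 11 lists of leukocyte genes, 9 had a median above 0 with and without saline replicate 4, beside 44 of all 61 lists with it. Natural killer and cytotoxic genes were above 0 in 10 of 10 cases, with a median of 0.39 (0.47 without saline replicate 4), and 2 of them (3) had an unadjusted p under 0.05, as did 5.66% (5.77%) of all genes in the higher direction. Nkg7, a granule protein of cytotoxic lymphocytes, stood at 4.50, 2.90, 1.59, 0.437 and 4.27 CPM in saline replicates 1 to 5 and at 4.85, 4.71, 7.18, 4.31 and 5.60 CPM in the 10 µg replicates 1 to 5. Saline replicate 4 was the lowest by far and the log2 fold change was 0.83 (0.70; edgeR, adjusted p = 0.291 and 0.419), while Eomes, a factor that directs the cytotoxic programme, stood at 0.51 (0.64; edgeR, adjusted p = 0.322 and 0.272). Summed over the list, these genes ran from 57.1 to 82.4 CPM in saline and 71.3 to 107 CPM at 10 µg; the highest saline sum was that of replicate 4, without which saline ran from 57.1 to 68.9 CPM and did not overlap.

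T cell genes had 13 of 15 above 0, with a median of 0.27 (0.23), and 3 higher (5) at an unadjusted p under 0.05, again beside 5.66% (5.77%) of all genes. Trac, the constant part of the T cell receptor alpha chain, stood at 0.48 (0.56; edgeR, adjusted p = 0.325 and 0.357), and Lck, the kinase beside the receptor, at 0.32 (0.33; edgeR, adjusted p = 0.333 and 0.423). Cd8a, of killer T cells, stood at 0.48 (0.54; edgeR, adjusted p = 0.386 and 0.442). The summed level ran from 77.9 to 106 CPM in saline and 73.6 to 121 CPM at 10 µg, so the groups overlapped. Ccl5, a chemokine made by activated T and natural killer cells that attracts more of them, came nearest to a call in the lists: it stood at 6.15, 3.80, 3.46, 7.65 and 5.38 CPM in saline replicates 1 to 5 and at 10.4, 8.31, 13.4, 7.75 and 8.13 CPM in the 10 µg replicates 1 to 5. The groups touched without overlap, at 7.65 CPM in saline replicate 4 and 7.75 CPM in the lowest treated mouse. Its log2 fold change was 0.93 (SE 0.20; edgeR, adjusted p = 0.0763), or 1.05 without saline replicate 4 (edgeR, adjusted p = 0.0612).

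B cell genes had 11 of 12 above 0, with a median of 0.30 (0.30) and 3 higher (4) at an unadjusted p under 0.05, beside the same shares of all genes. Cd79a, a signalling chain of the B cell receptor, stood at 12.6, 12.9, 8.90, 12.0 and 16.0 CPM in saline replicates 1 to 5 and at 20.3, 23.8, 25.6, 14.2 and 19.5 CPM in the 10 µg replicates 1 to 5. Of the 5 treated mice 4 were above every saline mouse, and replicate 4 was not; the log2 fold change was 0.72 (0.73; edgeR, adjusted p = 0.141 and 0.205). Plasma cell and immunoglobulin genes had 14 of 16 above 0 and a median of 0.46 (0.42), with 0 higher (0) at an unadjusted p under 0.05. Among them, Ighg2c ranged from 0.188 to 2.73 CPM at 10 µg, where 1 mouse held most of the signal, and Igha from 3.72 to 10.8 CPM. Constant regions of immunoglobulin genes resemble each other, so reads may be shared between them.

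Genes of antigen presentation by MHC class II were above 0 in 9 of 9 cases, with a median of 0.31 and 5 at an unadjusted p under 0.05 (5.66% of all genes). Without saline replicate 4 the median was 0.24 and 2 had such a p (5.77%). Cd74, the invariant chain that escorts class II molecules, stood at 641, 759, 560.2, 443 and 842 CPM in saline replicates 1 to 5 and at 921, 1001, 793, 713 and 804 CPM in the 10 µg replicates 1 to 5. Saline replicate 4 was the lowest of all 10 libraries. The log2 fold change was 0.38 (edgeR, adjusted p = 0.304), and 0.29 without that library; H2-Oa, of the modulator of peptide loading, stood at 0.54 and 0.51. Summed over the list, saline ran from 1154 CPM in replicate 4 to 1950 CPM in the highest, the next lowest being 1422 CPM, and 10 µg from 1732 to 2234 CPM.

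Neutrophil genes had 9 of 12 above 0 and a median of 0.34 (0.35), with the granule protease Mmp9 and the growth factor receptor Csf3r both at 0.53 (0.48 and 0.44 without saline replicate 4; edgeR, adjusted p = 0.314 and 0.354 with it). Monocyte and interstitial macrophage genes had 12 of 17 above 0 and a median of 0.21 (0.19), Ly6c2 of classical monocytes standing at 0.62 (0.55; edgeR, adjusted p = 0.264 and 0.421). Among myeloid C-type lectin receptors, 12 of 14 were above 0 at a median of 0.11, and Clec4a1 was the 1 called, beside 0.0407% of all genes. In the list of G protein signalling modulators, which holds both Gpsm3 and Gprin3, 2 of 15 were called, beside 0.0407% of all genes, and 12 were above 0. The list was drawn up with those calls known, so its count supports nothing. Its member Rgs16, which shortens G protein signals, stood at 0.74 without overlap (0.76; edgeR, adjusted p = 0.22 and 0.278). Alveolar macrophage genes had 4 of 13 above 0 and a median of -0.11 (-0.06). Heart muscle genes were also above 0, 8 of 8 at a median of 0.44 (0.46), with a summed level of 209 to 733 CPM in saline and 423 to 1025 CPM at 10 µg; their part in the leukocyte values was not tested. Of 2 lists from blood, red cell genes had 3 of 8 above 0 at a median of -0.05 (-0.09), and platelet and megakaryocyte genes 5 of 7 at 0.39 (0.26).

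**Figure D3:**
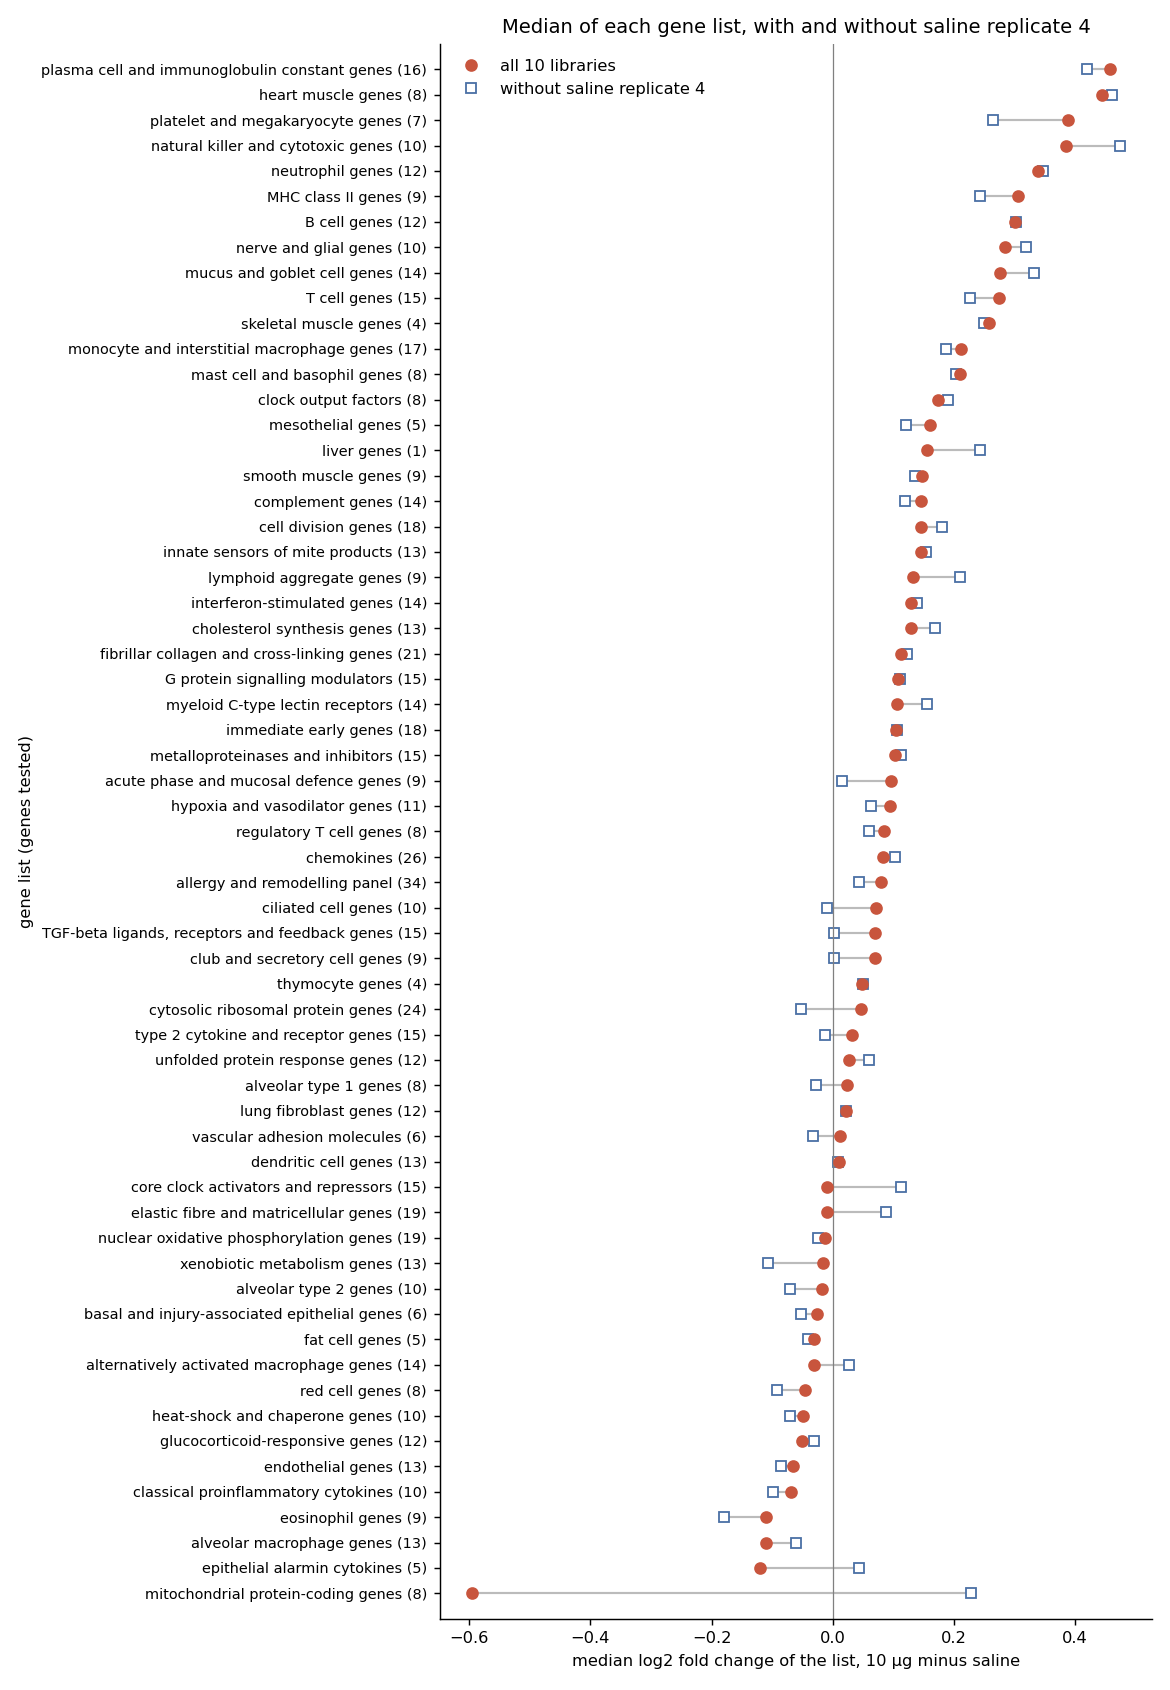
Median log2 fold change (10 µg minus saline) of the genes tested in each of 61 lists, with all 10 libraries (filled circles) and without saline replicate 4 (open squares), ordered by the first; the number of genes tested is in brackets. Plasma cell, heart, platelet, natural killer and neutrophil lists lie highest with all 10 libraries, and the mitochondrial list goes from -0.60 to 0.23 when replicate 4 is left out.

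The allergic programme was read in a panel of 36 allergy and remodelling genes. Of these 34 were tested, 0 were called by edgeR with or without saline replicate 4, and 1 had an unadjusted p under 0.05, against 12.5% of all genes (9.75% without saline replicate 4). Their median log2 fold change was 0.08 (0.04 without that library), and 26 of the 34 lay within 0.5 of 0. Ighe was 1 of the 26 although it had 0 counts in all 10 libraries, so nothing was measured for it. Il9, Il25 and Ighe had 0 counts in all 10 libraries; a count of 0 allows up to 0.0198 CPM over the saline group and 0.0152 CPM over the 10 µg group (3 counts, counting error only). Of the cytokines of type 2 immunity, Il4 was counted 21 times in saline and 36 times at 10 µg, Il5 29 and 23 times and Il13 7 and 5 times. Their log2 fold changes of 0.36 (0.32), -0.63 (-0.69) and -0.91 (-0.95) have SEs of 0.69, 0.59 and 1.28, so depth limits what can be said of them.

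The 1 panel gene with a small p was Il13ra2, the decoy receptor that takes up IL-13. It had 16 counts over the 5 saline libraries, at 0.117, 0.0659, 0.104, 0.219 and 0.133 CPM, and 1 count at 10 µg, in replicate 4, at 0.0313 CPM. Every saline mouse was above every mouse given extract. The ratio of saline to 10 µg was 21.5, with an exact 95% interval of 3.35 to 904 for counting error only (20.8, from 3.21 to 877, without saline replicate 4), and the fit missed the threshold (edgeR, adjusted p = 0.0854, and 0.12 without it). It was called in 3 of the 24 settings in which it was tested: by limma-voom with quality weights, with the ribosomal RNA share as a covariate in edgeR and without 10 µg replicate 4 in edgeR, with a smallest adjusted p of 0.0120 in limma. At 100 µg it stood at 0.0883, 0.106, 0.166, 0.0302 and 0.0656 CPM, 2 of these below every saline mouse and 3 within the saline range.

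Alarmins, other receptors and eosinophil genes gave no call by edgeR in the fit of all libraries. Il33 stood at 143 ± 9.25 CPM in saline and 124 ± 15.2 CPM at 10 µg (SD, n = 5 each), or -0.21 in log2 terms (-0.19 without saline replicate 4; SE 0.15; edgeR, adjusted p = 0.584), and Tslp at 0.10 (0.18; SE 0.17). Il1rl1, the receptor for IL-33, stood at -0.38 (SE 0.21; edgeR, adjusted p = 0.464) and at -0.16 without saline replicate 4, which held its highest value. Il4ra, shared by IL-4 and IL-13, stood at 0.05 (-0.01; SE 0.13). The eosinophil chemokines Ccl11 and Ccl24 stood at 0.32 (0.41) and -0.11 (-0.08), and Ccl17, which draws T helper cells, at -0.32 (-0.25). Ccl11 was highest in saline replicate 4, and without that library every treated mouse was above every saline mouse, at 0.41 (edgeR, adjusted p = 0.67). Eosinophil genes as a list had 3 of 9 above 0 and a median of -0.11 (-0.18); the granule protein genes Epx and Prg2 had 48 and 134 counts in saline, 33 and 203 at 10 µg, and Siglecf stood at -0.05 (-0.06).

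Macrophage and mucus genes gave no call in that fit either. Retnla, Chil3 and Arg1, products of alternatively activated macrophages in mice, stood at -0.14 (0.01; SE 0.28), -0.20 (-0.31; SE 0.36) and 0.08 (0.04; SE 0.66), and Chil4, with 15 counts in saline and 72 at 10 µg, at 1.82 (1.79; SE 1.32). Mucus and goblet cell genes had 11 of 14 above 0 and a median of 0.28 (0.33). Clca1, secreted by goblet cells, stood at 9.48, 0.966, 26.7, 48.8 and 1.51 CPM in saline replicates 1 to 5 and at 7.48, 8.58, 8.41, 118 and 10.2 CPM in the 10 µg replicates 1 to 5. Mice of the same group were far apart, and 1 treated mouse, replicate 4, was above all others. Its log2 fold change was 1.01 (SE 1.11; edgeR, adjusted p = 0.739), -0.80 without that mouse and 1.70 without saline replicate 4. In saline, Muc5ac, the inducible airway mucin, ranged from 0.746 to 4.37 CPM, the highest being replicate 4. At 10 µg it ranged from 0.538 to 2.16 CPM. Without saline replicate 4, saline ran from 0.746 to 0.940 CPM, with 4 treated mice above all of these and 1 below. Muc5ac was called in 0 of 31 settings. Muc5b, the mucin made at rest, stood at 0.12 (0.23; SE 0.43) and Spdef, the goblet cell factor, at 0.36 (0.45; SE 0.35). Mmp12, Ighg1, S100a8 and Il17a stood at 0.10 (0.24), 1.39 (1.46), 0.22 (0.16) and -0.25 (-0.28), with SEs of 0.58, 1.36, 0.32 and 1.85.

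Matrix genes of the panel gave no call by edgeR in the fit of all libraries. Col1a1 and Col3a1, the main fibrillar collagens, stood at 0.17 (0.21) and 0.08 (0.16), Fn1 (fibronectin) at -0.17 (-0.20), Acta2 (smooth muscle actin) at 0.08 (0.05), Tgfb1 at 0.26 (0.24), Tnc (tenascin) at 0.03 (0.02) and Timp1, a protease inhibitor, at 0.50 (0.44), none with an adjusted p under that of Timp1 at 0.504 (edgeR). In the list of fibrillar collagens and cross-linking enzymes, which also holds collagen VI, 15 of 21 were above 0 at a median of 0.11 (0.12). Of the 21, 2 were higher at an unadjusted p under 0.05, beside 5.66% of all genes in that direction. Both were chains of collagen VI: Col6a1, at 225, 219, 204, 218 and 247 CPM in saline replicates 1 to 5 and at 288, 265, 258, 256 and 311 CPM in the 10 µg replicates 1 to 5, did not overlap between groups, and its log2 fold change was 0.31 (SE 0.10; edgeR, adjusted p = 0.244), or 0.32 without saline replicate 4. Col6a2 stood at 0.33 (0.36; edgeR, adjusted p = 0.334 and 0.411). With the trend on GC content taken out, Col6a1 stood at 0.13 and Col6a2 at 0.18.

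Cholesterol synthesis genes were all above 0, 13 of 13, by a small median of 0.13 (0.17); Lss, lanosterol synthase, stood at 0.27 (0.24; edgeR, adjusted p = 0.294 and 0.425). Mitochondrial protein-coding genes turned with 1 library. All 8 tested were below 0, at a median of -0.60, and without saline replicate 4 6 of 8 were above 0, at 0.23. Of these, mt-Nd6, the subunit of complex I read from the light strand, stood at 46.3, 27.2, 41.9, 636 and 62.3 CPM in saline replicates 1 to 5 and at 63.4, 48.5, 77.8, 114 and 101 CPM in the 10 µg replicates 1 to 5. Saline replicate 4 was the highest by far, and the log2 fold change went from -0.96 to 0.88 without it. Rps16, of the small ribosomal subunit, stood at 36.2, 4.63, 9.45, 25.6 and 31.8 CPM in saline replicates 1 to 5 and at 34.0, 37.3, 55.4, 72.2 and 73.4 CPM in the 10 µg replicates 1 to 5. It varied within saline, with replicate 2 lowest, and its log2 fold change was 1.36 (SE 0.34; edgeR, adjusted p = 0.103), or 1.43 without saline replicate 4; it was called in 4 of 31 settings, among them DESeq2 with all libraries. Of the 24 ribosomal protein genes, 13 (7) were above 0, at a median of 0.05 (-0.05). At an unadjusted p under 0.05, 1 was higher and 2 were lower, beside 5.66% and 6.84% of all genes. Without overlap between groups, 0 were higher and 1 was lower, beside 1.68% and 1.65% of all genes. Ribosomal protein genes have many near-identical pseudogene copies, so their read counts are uncertain.

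Differences across the whole table followed base composition. Among 15252 protein-coding genes tested, cut into 5 equal groups by GC content of the longest transcript, the median log2 fold change was -0.11 in the GC-poorest group, then -0.06, 0.00 and 0.08, and 0.16 in the GC-richest. In the GC-poorest group 30 genes were higher and 444 lower at an unadjusted p under 0.05, and in the GC-richest 420 were higher and 16 lower. Spearman's rho between GC content and log2 fold change across genes was 0.48, and 0.31 without saline replicate 4, where the outer medians were -0.05 and 0.11. Genes are not independent replicates, and no test was made of it.

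The mean difference between GC-rich and GC-poor genes, taken per library, was -0.03, 0.09, -0.16, -0.72 and 0.11 log2 units in saline replicates 1 to 5 and 0.26, 0.24, 0.06, 0.06 and 0.13 in the 10 µg replicates 1 to 5. Saline replicate 4 was the lowest by far and the remaining ranges overlapped. The group means differed by 0.29 (exact permutation test, two-sided, p = 0.0556, n = 5 and 5; adjusted over 7 measures 0.194) and by 0.15 without that library (p = 0.103 in the same exact test; adjusted 0.181), where the smallest p these numbers of mice allow is 0.00794. Genes with a longer total of exonic bases stood lower, with medians from 0.07 in the shortest of 5 groups to -0.07 in the longest. These medians were 0.05 and -0.04 without saline replicate 4, and 0.02 and -0.03 with the GC trend taken out. Several called genes lie at the ends of the GC range, from Dbp at 61.6% to Gprin3 at 41.7%. With each library's GC trend taken out, 6 genes were called, of which 5 were among the 8 (Clec4a1, Gpsm3, Lingo1, Kctd14 and Gprin3), while Gsk3a went from 0.41 to 0.20, Dbp to 1.40 and Nbea to -0.27.

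**Figure D4:**
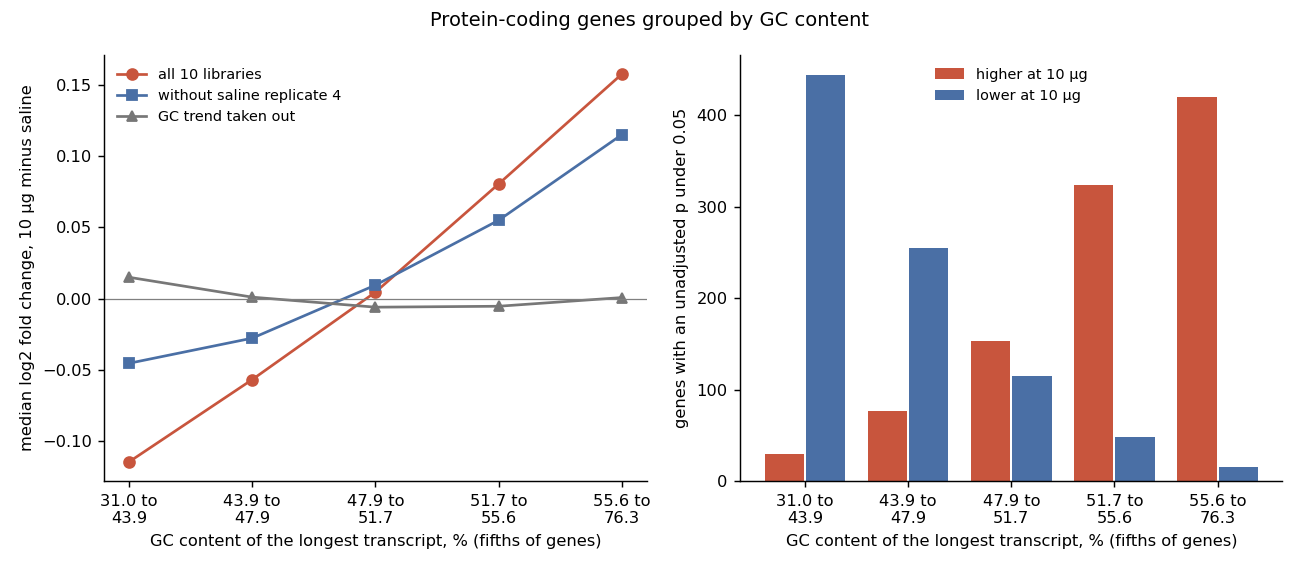
Protein-coding genes in 5 groups by GC content of the longest transcript. Left, the median log2 fold change (10 µg minus saline) with all libraries, without saline replicate 4 and with the GC trend taken out; right, the number of genes higher and lower at an unadjusted p under 0.05, on an axis from 0. The median climbs from -0.11 to 0.16 over the 5 groups. It stays within 0.02 of 0 once the trend is taken out, which that step itself brings about.

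Many more genes separated the groups and missed the threshold. With a mean of 1 CPM or more, 311 genes were higher without overlap (2.03% of 15337) and 296 lower (1.93%), called genes included. Genes without a symbol and those with predicted, clone-based, pseudogene or antigen receptor segment names were then left out. Of those not called, 292 and 247 remained, and the 10 of smallest p on each side were taken. The 10 higher, among them Wbp2, Acd, Mfap2, Nfkbib, Trp53, Nsfl1c, Tnip1, Eif2b2 and Rbm38, stood at log2 fold changes of 0.36 to 0.70 (edgeR, adjusted p from 0.0552 to 0.0763, and from 0.0293 to 0.120 without saline replicate 4). Nfkbib and Tnip1 encode inhibitors of NF-κB signalling, and Acd a protein of the telomere cap. Wbp2, a partner of WW-domain proteins, stood at 82.5, 75.1, 63.1, 87.7 and 84.8 CPM in saline replicates 1 to 5 and at 107, 119, 112, 114 and 106 CPM in the 10 µg replicates 1 to 5. No mouse given extract was below any saline mouse. Their GC content ran from 51.5 to 61.5% with a median of 56.8%, against 49.8% for the median protein-coding gene tested.

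The 10 lower genes, among them Ppp2r2a, Ccdc141, Arhgef26, Cyyr1, Dock4, Zbtb11, Wipf3, Ppp2r5e and Palld, stood at log2 fold changes of -0.81 to -0.28 (edgeR, adjusted p from 0.0763 to 0.0870, and from 0.120 to 0.227 without saline replicate 4), with a median GC content of 45.6%. Ppp2r2a and Ppp2r5e encode regulatory subunits of protein phosphatase 2A, and Dock4 and Arhgef26 activators of small GTPases. Ppp2r2a stood at 71.7, 72.9, 73.3, 80.7 and 67.1 CPM in saline replicates 1 to 5 and at 48.9, 41.0, 41.2, 56.0 and 45.2 CPM in the 10 µg replicates 1 to 5. The groups were well apart, at -0.65 (SE 0.14; edgeR, adjusted p = 0.0763), and -0.60 without saline replicate 4. Cyyr1, a gene of little known function, went from 236 ± 26.9 to 154 ± 10.0 CPM (SD, n = 5 each).

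The values at 100 µg are set beside those at 10 µg for the 8 called genes, against the same 5 saline mice, so both comparisons share whatever is particular to those. At 100 µg, 1597 genes were called against saline (8.13%), and between 100 and 10 µg edgeR made 0 calls, although 1666 genes had an unadjusted p under 0.05 (8.48%); DESeq2 called 1 and limma-voom with quality weights 3. Dbp stood at 86.1, 106, 113, 107 and 128 CPM in the 100 µg replicates 1 to 5, a log2 fold change of 2.47 over saline (edgeR, adjusted p = 0.000214) beside 1.61 at 10 µg. Gpsm3 stood at 11.5, 12.3, 12.4, 12.6 and 13.1 CPM, 1.11 beside 0.85, with the lowest mouse at 100 µg just below the highest at 10 µg. Lingo1 went to 1.94 beside 1.53 and Kctd14 to 1.51 beside 0.99.

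Clec4a1 stood at 0.81 beside 0.70 and Gprin3 at -0.67 beside -0.56, both with overlapping values at the 2 doses. Gsk3a (0.37 beside 0.41) and Nbea (-0.21 beside -0.31) stood nearer to saline at 100 µg than at 10 µg. The step from 10 to 100 µg was called for none of the 8 by edgeR; it was largest for Dbp, 0.87 log2 (SE 0.29; edgeR, adjusted p = 0.466). For the clock activator Arntl the step was -0.84 (edgeR, adjusted p = 0.434), and for Per3 0.66. A step that misses the threshold does not show that both doses act alike.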

How the data were processed

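Total RNA of 25 mouse lungs was sequenced from TruSeq Stranded Total RNA libraries, per the labels' protocols. Reads were aligned with STAR 2.5.3a to GRCm38, per the submitters' processing notes. Which program counted the reads, with which strand option and annotation, was not given in the sources used here. The authors deposited raw counts per Ensembl gene for 55421 genes, 99.7% of them with a symbol. Group and replicate came from the labels, and the 10 libraries compared held 7.23 to 51.9 M counts. The members and gene lists were chosen with earlier results of these data known.

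Genes were kept by filterByExpr and libraries scaled by trimmed means in edgeR 4.0.16 (R 4.3.3). The quasi-likelihood test was fitted to all 25 libraries, which share 1 estimate of the spread, and p-values were adjusted by Benjamini and Hochberg over 19654 genes. The threshold for a call was an adjusted p of 0.05. CPM were computed from the deposited counts with the scaled library sizes. Library measures were compared by exact permutation tests. Alternatives used limma 3.58.1 and DESeq2 1.42.0, other scalings and filters, and fits without single libraries. GC trends were smoothed per library by lowess (span 0.3), a step added after seeing the data. The code was tested on simulated data.

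Named genes were the called ones, up to 10 higher and 10 lower genes of smallest p that separated the groups at a mean of 1 CPM or more, a panel of 36 allergy genes, and up to 4 genes of smallest p from each described list; a few genes that met this rule are not reported here. Annotation of overlaps, GC and length came from GENCODE on GRCm38, and promoters from RefSeq on GRCm38.p6. Intervals and limits for 0 counts cover counting error only, since PCR copies were not marked.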

Additional observations from a re-analysis of the deposited data

Results flagged for a closer look

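A library stood far from the rest of its group, by Dixon's 95% criterion for 5 samples, in 23 of 200 groups of values examined (11.5%), where chance gives about 1 in 20; many of these measures are not independent. In saline replicate 4, Ccl11 was highest at 5.47 CPM (nearest 3.63), Lss was lowest at 25.8 CPM (nearest 31.0) and Muc5ac was highest at 4.37 CPM (nearest 0.940). Also in saline replicate 4, mt-Nd6 was highest at 636 CPM (nearest 62.3), ribosomal RNA was highest at 27.8% of counts (nearest 0.103) and mitochondrial ribosomal RNA was highest at 5.89% of counts (nearest 1.02). Also in saline replicate 4, all mitochondrial genes were highest at 9.80% of counts (nearest 3.59). In 10 µg replicate 5, Arntl was lowest at 26.7 CPM (nearest 41.0), Dbp was highest at 98.4 CPM (nearest 57.7) and Il17a was highest at 0.0258 CPM (nearest 0). Also in 10 µg replicate 5, Nr1d2 was highest at 194 CPM (nearest 151). In saline replicate 5, Arntl was lowest at 42.9 CPM (nearest 68.6), Dbp was highest at 38.8 CPM (nearest 18.6) and Per3 was highest at 30.6 CPM (nearest 19.4). In saline replicate 2, Epx was highest at 0.922 CPM (nearest 0.111), Il17a was highest at 0.0220 CPM (nearest 0) and Prg2 was highest at 2.503 CPM (nearest 0.509). In 10 µg replicate 4, Clca1 was highest at 118 CPM (nearest 10.2), Cry1 was highest at 11.7 CPM (nearest 9.32) and Il13ra2 was highest at 0.0313 CPM (nearest 0). In saline replicate 1, Il13 was highest at 0.235 CPM (nearest 0.0346). In 10 µg replicate 2, Ighg2c was highest at 2.73 CPM (nearest 0.748). In 10 µg replicate 3, Timp1 was highest at 7.50 CPM (nearest 5.94). Replicate 5 stood apart for Arntl and Dbp in both groups, on the same side. The values of Il13, Il17a, Epx and Il13ra2 rest on few counts.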

How the results depend on the processing

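The 8 calls rest on the fit of all 25 libraries. The number of genes called was 2 with DESeq2 size factors, 3 with upper-quartile scaling, 2 with ribosomal RNA and mitochondrial genes left out, 2 with no filter on low counts, 2 with robust dispersion, 0 with limma-voom (2257 at an unadjusted p under 0.05), 329 with limma-voom and quality weights, 202 with DESeq2 and 156 with the ribosomal RNA share as a covariate. It was 0 in the 2 compared groups alone (2252 at an unadjusted p under 0.05), 2 in the 2-week libraries alone and 77 in the 2 compared groups without saline replicate 4. Leaving out each library in turn gave 0 to 57. Among settings chosen after seeing the data, the count was 6 with the GC trend taken out, 28 with it taken out in the 2 groups alone without saline replicate 4, 2 in the 2-week libraries without saline replicate 4, 129 by DESeq2 without that library and 0 by limma-voom without it (2074 at an unadjusted p under 0.05). Gpsm3 was among the 2 in each of the 6 settings that gave 2. The step from 10 to 100 µg gave 1 call by DESeq2 and 3 by limma-voom with quality weights, also chosen later. Of 248 values recomputed for the 8 called genes, 97 stayed past the threshold, 151 missed it and 0 changed direction.

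Replicate numbers did not meet the criterion for pairing, a correlation over 0.1 in every pair: deviations of same-numbered saline and 10 µg libraries from their group means correlated at -0.11, 0.08, 0.21, 0.12 and 0.11 over 15337 genes, and 2 of 5 numbers matched best with their own. With the replicate number as a block 7 genes were called, 4 of them among the 8 (Dbp, Gprin3, Gpsm3 and Lingo1), and 17 with the block in the 2 compared groups alone, 2 of them among the 8 (Dbp and Gprin3).

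The difference in ribosomal RNA share, -5.60 percentage points, was -0.0504 without saline replicate 4 (exact permutation test, two-sided, p = 0.0317 and 0.0714; adjusted over 7 measures 0.194 and 0.167). Without that library, mitochondrial ribosomal RNA turned from -0.369 to 0.679 points and all mitochondrial genes from -0.466 to 0.942.

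Of 92 genes recomputed, 21 changed direction somewhere, none of them called. Their log2 fold changes with turned sign were as follows. With the GC trend taken out, Col1a1 at -0.053, Col3a1 at -0.011, Il4ra at -0.079, Muc5b at -0.018 and Tnc at -0.039. By limma-voom, Epx at 0.032, Il4 at -0.27 and mt-Nd6 at 0.44. By limma-voom with quality weights, Acta2 at -0.00098, Epx at 0.58, Il4 at -0.38, Il4ra at -0.018 and mt-Nd6 at 0.83. With the ribosomal RNA share as a covariate, Epx at 1.72 and mt-Nd6 at 0.14. By limma-voom without saline replicate 4, Epx at 0.0036, Il4 at -0.30, Il4ra at -0.013 and mt-Nd6 at 0.87. In the 2 groups alone without saline replicate 4, Il4ra at -0.017, Retnla at 0.011 and mt-Nd6 at 0.87. With the GC trend taken out and without saline replicate 4, Il4ra at -0.094, Retnla at 0.035, Tnc at -0.029 and mt-Nd6 at 1.02. With the GC trend taken out in the 2 groups alone without saline replicate 4, Il4ra at -0.097, Retnla at 0.035, Tnc at -0.029 and mt-Nd6 at 0.99. In the 2-week libraries without saline replicate 4, Il4ra at -0.011, Retnla at 0.017 and mt-Nd6 at 0.88. By DESeq2 without saline replicate 4, Il4ra at -0.015, Retnla at 0.012 and mt-Nd6 at 0.88. By DESeq2, Muc5ac at -0.17. With the replicate block, Arg1 at -0.028. With the replicate block in the 2 groups alone, Muc5ac at -0.041 and mt-Nd6 at 0.18. Over the libraries left out in turn the range was Arg1 from -0.073 to 0.26, Ccl24 from -0.22 to 0.019, Clca1 from -0.80 to 1.70, Epx from -1.06 to 1.52, Il13 from -2.39 to 1.27, Il17a from -1.51 to 1.26, Il4 from -0.24 to 0.71, Il4ra from -0.012 to 0.11, Mmp12 from -0.023 to 0.24, Muc5b from -0.083 to 0.24, Prg2 from -0.18 to 2.24, Retnla from -0.33 to 0.015, S100a8 from -0.053 to 0.42, Siglecf from -0.13 to 0.015, Tnc from -0.071 to 0.12, Tslp from -0.022 to 0.18 and mt-Nd6 from -1.23 to 0.88. The causes were not tested. Il4, Il5, Il13, Il17a and Epx rest on few counts. Their values, and those of Prg2, change sign or size with single mice. Each group held 5 mice, and 1 library was shallow.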
